A study of Mus musculus with 8 samples.

Results

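Kupffer cells, the resident macrophages of the liver, were followed through 10 marker transcripts in bulk liver RNA. Of the 10, 5 mark the resident Kupffer cell (Clec4f, Marco, Timd4, Vsig4 and Cd5l) and 5 mark macrophages in general (Adgre1, Cd68, Csf1r, C1qa and C1qb). They were taken by gene symbol from the deposited tables, in which each symbol had 1 row among 55421 transcripts, and all 10 were among the 14506 transcripts with enough counts to be tested. The livers came from 8 male C57BL/6J mice that were bought at 4 weeks of age, kept for 4 weeks and then fed a high-fat diet (45% of calories from fat). Control mice (cohort of 11) were gavaged with PBS and sudachitin mice (cohort of 12) with 100 mg per kg of body weight of sudachitin, a polymethoxyflavone of citrus, on alternate days at ZT8 to ZT10, where zeitgeber time (ZT) counts the hours since the lights came on. Livers were taken at an age of 30 weeks, either at ZT6 in the light phase or at ZT18 in the dark phase. The sequenced libraries formed 4 groups of 2 mice, control and sudachitin at each time, so that every group shared strain, sex, diet and gavage.

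Kupffer cells line the liver sinusoids and clear bacteria, debris and aged red cells from the blood. Their identity is maintained by signals from neighbouring liver cells and by transcription factors that include PU.1, MAF proteins and LXR alpha, and their survival depends on CSF1 receptor signalling. Under a fatty diet some resident cells can be lost and replaced by cells derived from blood monocytes, which acquire some resident markers early and TIM-4, the product of Timd4, late. In bulk tissue, fewer or more macrophages and less or more RNA per macrophage cannot be told apart.

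Of the 10 markers 7 had a RefSeq promoter entry on GRCm38. The bases before the start are shown for Vsig4 and C1qb, whose levels followed the mean of the markers closely, and for Marco and Timd4, which followed it least. Each line is 5′ to 3′ on the gene's strand and ends at the base before the RefSeq start. Capitals mark GAGGAA, the core recognised by PU.1 on either strand, which reads TTCCTC on the other.
Vsig4 (chrX:96293439-96293688, strand minus): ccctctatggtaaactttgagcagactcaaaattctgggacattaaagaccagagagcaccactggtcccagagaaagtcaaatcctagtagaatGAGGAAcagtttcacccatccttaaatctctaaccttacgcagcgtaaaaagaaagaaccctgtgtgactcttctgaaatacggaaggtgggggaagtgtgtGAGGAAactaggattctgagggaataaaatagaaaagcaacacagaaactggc
C1qb (chr4:136886201-136886450, strand minus): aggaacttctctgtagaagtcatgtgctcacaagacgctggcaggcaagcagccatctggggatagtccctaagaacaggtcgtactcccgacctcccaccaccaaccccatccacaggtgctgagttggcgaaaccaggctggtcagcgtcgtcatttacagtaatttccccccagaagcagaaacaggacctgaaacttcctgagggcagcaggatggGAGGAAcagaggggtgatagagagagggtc
Marco (chr1:120505025-120505274, strand minus): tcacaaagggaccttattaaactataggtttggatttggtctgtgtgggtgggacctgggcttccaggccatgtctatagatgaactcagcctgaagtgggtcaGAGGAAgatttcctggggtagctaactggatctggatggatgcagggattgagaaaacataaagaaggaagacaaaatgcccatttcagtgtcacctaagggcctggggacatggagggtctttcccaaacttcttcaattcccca
Timd4 (chr11:46810549-46810798, strand plus): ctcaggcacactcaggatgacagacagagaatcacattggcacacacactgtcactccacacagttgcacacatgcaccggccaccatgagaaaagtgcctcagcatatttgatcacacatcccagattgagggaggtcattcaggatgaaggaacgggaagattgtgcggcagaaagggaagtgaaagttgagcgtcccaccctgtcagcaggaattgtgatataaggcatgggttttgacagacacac
The PU.1 core was present in 5 of the 7 promoters (Marco, Vsig4, Cd5l, Cd68 and C1qb), and in 23.3% of all 32817 mouse promoter windows of 250 bases. Timd4 had none. In C1qb it lay 30 to 25 bases before the start and in Marco 146 to 141, and Vsig4 held 2 copies, 155 to 150 and 53 to 48 bases before the start. TGCTGA, a half-site of MAF factors that reads TCAGCA on the other strand and overlaps no PU.1 core in these windows, was present in 4 of the 7 (Clec4f, Timd4, Cd5l and C1qb) and in 16.1% of all windows. The DR4 element of LXR was found in none of the 7 on either strand, and in 5 windows of the 32817. These matches describe the letters of the windows only.

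Libraries held 13914116 to 17759630.5 estimated counts in exons. Control ZT18 replicate 1 stood apart, being the highest or lowest of the 8 libraries in 38.2% of tested genes, against 17.4% to 27.7% for the others, so each median of the 10 markers that uses it, with the number above 0, is also given without it. The sample titles carry codes that the labels do not explain. Both control ZT6 mice share a code start, as do both sudachitin ZT6 mice, so anything these codes mark cannot be told apart from treatment at ZT6. Levels are given in CPM (counts relative to library totals, scaled with TMM factors), and in the authors' FPKM where genes are compared with each other.

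Per unit of transcript length, the complement subunits and Clec4f were the most abundant markers and Marco and Timd4 the least. C1qa and C1qb, which encode chains of the complement recognition molecule C1q, lie on either side of C1qc, the gene of the other chain, on chromosome 4 (136895917 to 136898803 and 136880129 to 136886187, GRCm38) and had a median of 10.4 and 8.47 FPKM over the 8 libraries, with C1qa above C1qb in 8 of 8. C1qb, Clec4f (median 8.53 FPKM) and Cd5l (median 7.14 FPKM) were not separated: C1qb exceeded Clec4f, and Clec4f exceeded Cd5l, in 5 of 8 libraries each. Cd5l exceeded Vsig4 (median 3.13 FPKM) in all 8. Vsig4 exceeded Csf1r (median 2.12 FPKM), and Csf1r exceeded Cd68 (median 1.64 FPKM), in 7 of 8 each. Cd68 was above Adgre1 (median 0.611 FPKM) in all 8, and the last neighbours overlapped, with Adgre1 above Marco (median 0.547 FPKM) in 6 of 8 and Marco above Timd4 (median 0.432 FPKM) in 5 of 8. Between its lowest and highest library a marker varied by 2.06-fold (C1qb) to 5.96-fold (Marco).

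At ZT6 the resident Kupffer markers had higher mean levels in sudachitin than in control livers, by 1.49-fold to 2.7-fold, but none passed the test over all genes. Clec4f, a C-type lectin receptor found on mouse Kupffer cells (chromosome 6, 83644542 to 83656187), was at 34.3 and 44.3 CPM in control ZT6, 46.7 and 70.9 in sudachitin ZT6, 43.8 and 33.6 in control ZT18 and 42.8 and 50.3 CPM in sudachitin ZT18 livers. Both sudachitin livers were above both controls at ZT6, although the lower of them exceeded the higher control by a factor of only 1.05, and the groups overlapped at ZT18. The log2 difference at ZT6 was 0.58 (SE 0.23, edgeR adjusted p = 1.0) and that at ZT18 was 0.27 (SE 0.23, edgeR adjusted p = 0.88). Vsig4, a complement receptor that binds C3 fragments and so captures coated particles (chromosome X, 96247203 to 96293438), was at 7.34 and 8.95 CPM in control ZT6, 9.65 and 18.1 in sudachitin ZT6, 10.0 and 6.25 in control ZT18 and 10.7 and 10.2 CPM in sudachitin ZT18 livers. Sudachitin livers did not overlap with controls at either time, with log2 differences of 0.76 (SE 0.32) at ZT6 and 0.35 (SE 0.32) at ZT18. The gap at ZT18 was narrow, with the lower sudachitin liver at 10.2 CPM and the higher control at 10.0 CPM.

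Cd5l, which encodes the secreted macrophage protein AIM (chromosome 3, 87357881 to 87371073), had the largest ZT6 level difference among the abundant markers. It was at 26.1 and 32.8 CPM in control ZT6, 42.2 and 66.6 in sudachitin ZT6, 42.8 and 19.0 in control ZT18 and 28.4 and 30.8 CPM in sudachitin ZT18 livers. The sudachitin livers were higher than the controls at ZT6, by 0.88 on the log2 scale (SE 0.35, edgeR adjusted p = 1.0), and at ZT18 both lay between the 2 controls, with a difference of -0.07 (SE 0.34). Within sudachitin livers Cd5l was lower at ZT18 than at ZT6 without overlap, at -0.88 on the log2 scale (SE 0.34, edgeR adjusted p = 0.35). The interaction, the treatment difference at ZT18 minus that at ZT6, was -0.95 (SE 0.49, edgeR adjusted p = 1.0).

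Marco and Timd4 were the least abundant markers. Marco, a scavenger receptor for bacteria and particles (chromosome 1, 120474538 to 120505024), was at 1.01 and 1.18 CPM in control ZT6, 2.27 and 3.68 in sudachitin ZT6, 2.51 and 2.32 in control ZT18 and 6.28 and 2.23 CPM in sudachitin ZT18 livers. The control ZT6 livers were the lowest pair of the 8, and sudachitin ZT18 replicate 1 was the highest library, while its group mate was near the controls. These levels rest on 14 counts (95% Poisson interval 7.7 to 23.5, counting error only) in control ZT6 replicate 1 and 106 (86.8 to 128.2) in sudachitin ZT18 replicate 1, whose intervals do not overlap. The log2 difference of sudachitin against control was 1.43 (SE 0.52, edgeR adjusted p = 1.0) at ZT6 and 0.81 (SE 0.46, edgeR adjusted p = 0.81) at ZT18, and the latter was -0.12 without sudachitin ZT18 replicate 1. Marco was also higher at ZT18 than at ZT6 in control livers without overlap, by 1.14 (SE 0.53, edgeR adjusted p = 0.41); this comparison uses the same control ZT6 livers as the treatment comparison at ZT6.

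Timd4, the gene of the phosphatidylserine receptor TIM-4 with which resident macrophages bind dying cells (chromosome 11, 46810800 to 46844332), was at 1.94 and 2.09 CPM in control ZT6, 2.34 and 4.02 in sudachitin ZT6, 1.34 and 1.48 in control ZT18 and 1.9 and 2.88 CPM in sudachitin ZT18 livers. Along with Vsig4 it was 1 of the 2 markers whose sudachitin livers lay above the controls without overlap at both times. Of all tested genes 15.4% did so at ZT6 and 15.3% at ZT18, and the share that did so at both was not counted. The log2 difference of Timd4 was 0.65 (SE 0.35) at ZT6 and 0.76 (SE 0.36, edgeR adjusted p = 0.78) at ZT18. The 2 ZT18 controls were its lowest libraries. Control ZT18 replicate 1, which was high for most markers, was the lowest of all for Timd4, at 3.5 log2 units below the mean of the other 9 markers against 2.05 to 2.87 below in the other 7 libraries. The 24 counts behind this level (95% Poisson interval 15.4 to 35.7) have an interval that overlaps that of control ZT18 replicate 2 (21 counts, 13.0 to 32.1).

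**Figure D1:**
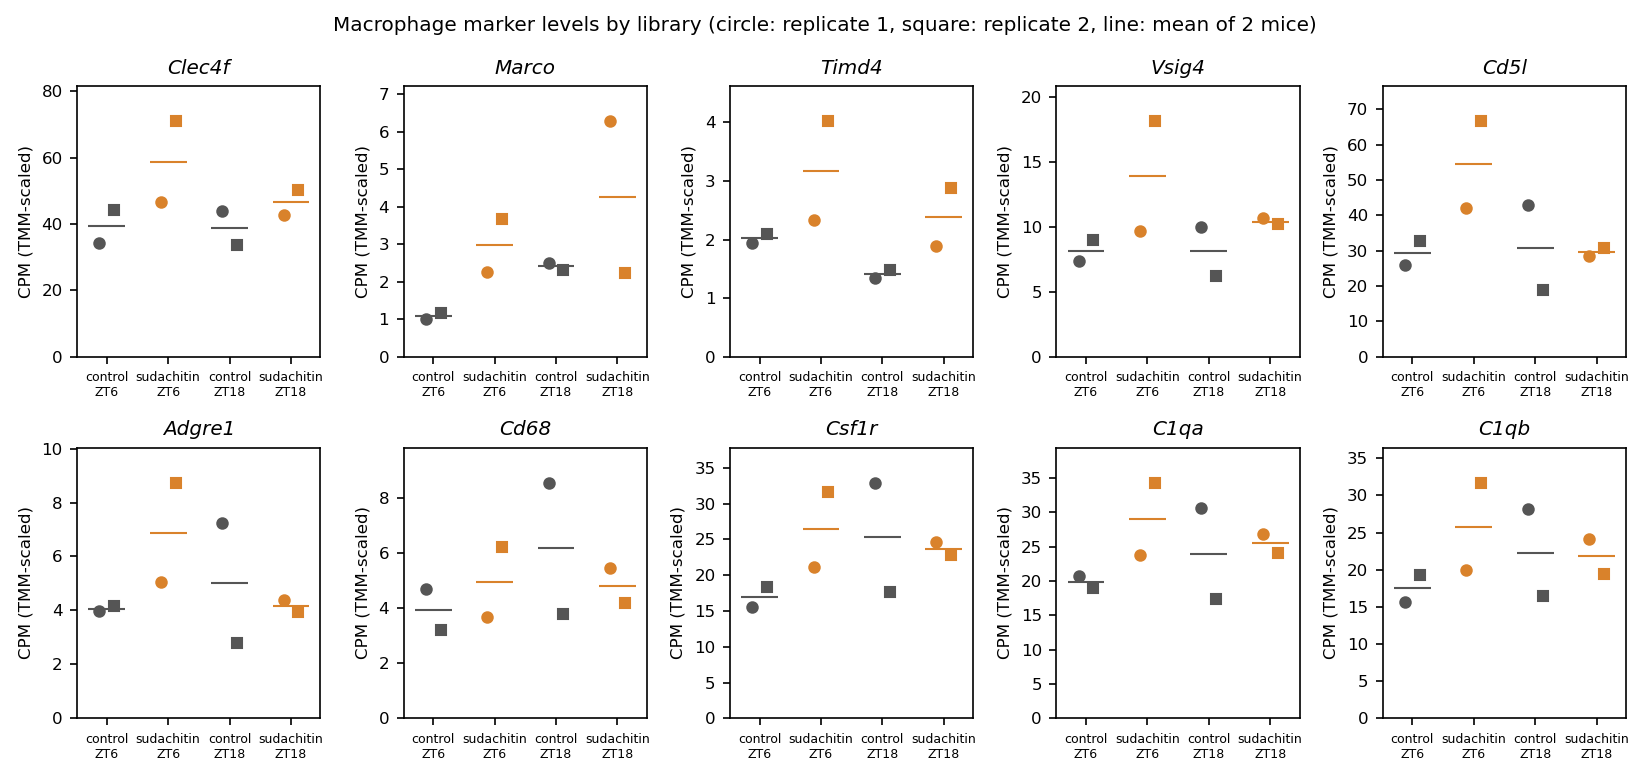
Level of each of the 10 markers in CPM (y axes from 0, scaled per gene) in the 4 groups of 2 mice, with circles for replicate 1, squares for replicate 2 and lines for the group mean. Sudachitin ZT6 replicate 2 is the highest library for 7 markers, control ZT18 replicate 1 for 2 (Cd68 and Csf1r) and sudachitin ZT18 replicate 1 for Marco.

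The pan-macrophage markers also had higher means in sudachitin livers at ZT6, by 1.25-fold to 1.69-fold without passing the test, and had no common direction at ZT18. Csf1r, the receptor for CSF1 and IL-34 (chromosome 18, 61105852 to 61132149), was at 15.6 and 18.3 CPM in control ZT6, 21.2 and 31.6 in sudachitin ZT6, 32.9 and 17.7 in control ZT18 and 24.7 and 22.8 CPM in sudachitin ZT18 livers. Sudachitin livers were above controls at ZT6 by 0.64 on the log2 scale (SE 0.29, edgeR adjusted p = 1.0) and lay between the 2 controls at ZT18. Of its exon bases 873 overlap Hmgxb3 on the opposite strand, and as the libraries carry no strand its counts may include reads of that gene. Adgre1, which encodes F4/80 (chromosome 17, 57358691 to 57483527), was at 3.96 and 4.18 CPM in control ZT6, 5.04 and 8.73 in sudachitin ZT6, 7.25 and 2.81 in control ZT18 and 4.39 and 3.93 CPM in sudachitin ZT18 livers. Its ZT18 controls differed 2.51-fold, the widest gap between 2 control mice among the 10 markers, and enclosed both sudachitin livers. The log2 differences were 0.75 (SE 0.42) at ZT6 and -0.29 (SE 0.42) at ZT18.

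C1qa was at 20.8 and 19.0 CPM in control ZT6, 23.8 and 34.3 in sudachitin ZT6, 30.7 and 17.4 in control ZT18 and 26.9 and 24.1 CPM in sudachitin ZT18 livers. C1qb was at 15.7 and 19.3, 19.9 and 31.7, 28.2 and 16.4, and 24.2 and 19.4 CPM in the same order. For both subunits the sudachitin livers exceeded the controls at ZT6, by 0.54 (SE 0.26) and 0.56 (SE 0.29) on the log2 scale, and lay between the 2 controls at ZT18. Cd68, a lysosomal glycoprotein of phagocytes (chromosome 11, 69664213 to 69666153), was the only 1 of the 10 to overlap between treatments at ZT6, at 4.68 and 3.2 CPM in control and 3.69 and 6.21 in sudachitin livers. At ZT18 it was at 8.54 and 3.79 CPM in control and 5.45 and 4.17 CPM in sudachitin livers. Its log2 differences were 0.33 (SE 0.42) and -0.37 (SE 0.41).

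Counted together at ZT6, 10 of 10 markers were above 0 in the treatment difference, where 48.8% of all tested genes were, with a median log2 difference of 0.64 against -0.005 over all tested genes. In 9 of 10 the sudachitin livers were higher without overlap, against 15.4% of tested genes. In these 9 the lower sudachitin liver exceeded the higher control by 1.03-fold (C1qb) to 1.93-fold (Marco). The markers varied together over the libraries (median Pearson r 0.75), so they are not 9 separate observations. None of the 10 passed edgeR's quasi-likelihood test (background 0.0% of tested genes). At an unadjusted edgeR p under 0.05 there were 4 (Clec4f, Marco, Vsig4 and Cd5l), against 2.12% of tested genes. DESeq2 also called none of the 10. The size depended on 1 mouse: sudachitin ZT6 replicate 2 was higher than replicate 1 in all 10 markers, by 1.44-fold to 1.86-fold, and without it the median was 0.26 with 9 of 10 above 0. Without replicate 1 the median was 0.95. Against the control mean, replicate 1 stood at 0.936-fold (Cd68) to 2.08-fold (Marco) and replicate 2 at 1.57-fold (Cd68) to 3.37-fold (Marco).

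At ZT18 no common direction was seen. Of the 5 resident markers 4 were above 0, with a median log2 difference of 0.35, and of the 5 general markers 1 was, with a median of -0.1. Over all 10 the median was 0.02 with 5 above 0 (49.6% of tested genes were), 2 were higher without overlap against 15.3% of tested genes, and none passed in edgeR (background 0.0138%) or DESeq2. An unadjusted p below 0.05 was reached by 0 markers with either tool, against 6.51% of tested genes in edgeR. The values moved with control ZT18 replicate 1, in which Cd68, Csf1r, C1qa, C1qb, Adgre1, Cd5l and Vsig4 were 1.59-fold to 2.51-fold above replicate 2. Without that library 10 of 10 lay above 0 and the median was 0.56. Both sudachitin livers were above the remaining control for 9 of 10, against 31.3% of tested genes. That single control, replicate 2, was the lowest of the 8 libraries for 5 markers and among the lowest 2 for 8, so these counts rest on it. Without replicate 2 the median was -0.32. The difference between the 2 sets of markers was not tested.

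**Figure D2:**
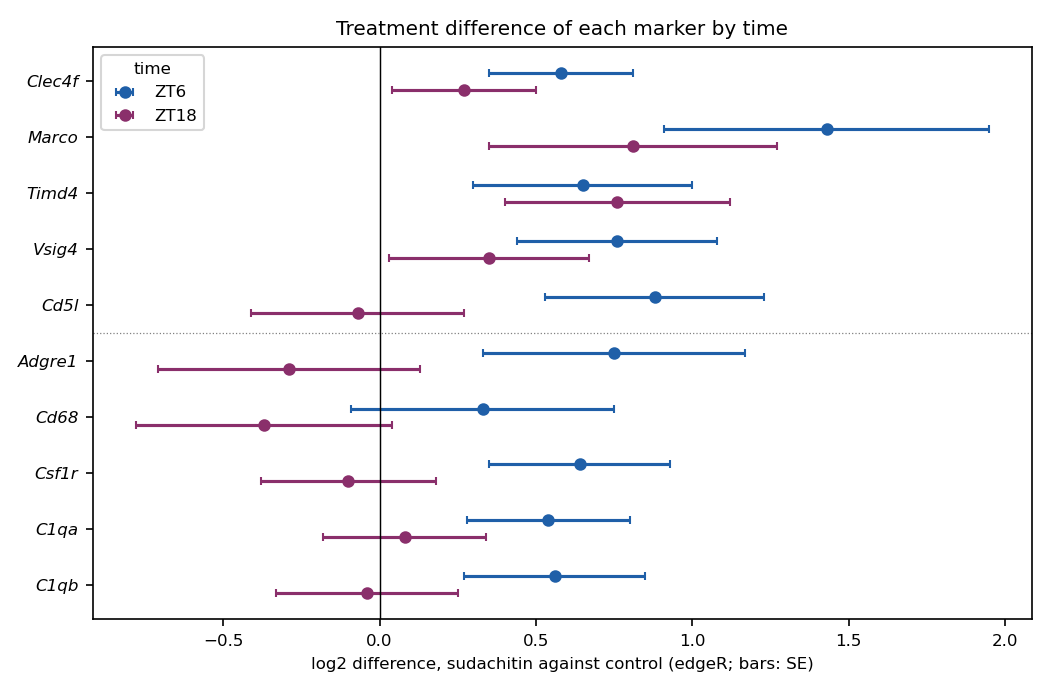
Log2 difference of sudachitin against control (x axis) for each marker at ZT6 (blue) and ZT18 (purple), as points with the SE as bars, with resident markers above the dotted line and general markers below it. All 10 points lie above 0 at ZT6, from 0.33 to 1.43, and 5 do at ZT18, from -0.37 to 0.81.

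With both times pooled, 9 of 10 markers were above 0 (49.7% of tested genes were), with a median log2 difference of 0.36. The median was 0.61 with 10 above 0 when control ZT18 replicate 1 was left out, and 0.16 with 8 above 0 when sudachitin ZT6 replicate 2 was. All 5 resident markers ranged from 0.41 to 1.08 and the 5 general ones from -0.04 to 0.31. The lowest of these, Cd68, was at 0.34 without control ZT18 replicate 1, and the difference between resident and general markers was not tested. Marco differed most, by 1.08 (SE 0.34, unadjusted p = 0.011, edgeR adjusted p = 1.0), followed by Timd4 with 0.7 (SE 0.24). None of the 10 passed in edgeR (background 0.0207%) or DESeq2. In edgeR 4 had an unadjusted p under 0.05, against 4.41% of tested genes. No marker separated all 4 sudachitin from all 4 control livers, which 0.958% of tested genes did upwards and 0.869% downwards.

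Day and night differed in no common direction. In control livers the markers had a median log2 difference of 0.3 at ZT18 against ZT6, with 8 above 0 (52.8% of tested genes were), and in sudachitin livers of -0.29, with 1 above 0 (50.9%). None passed in edgeR in either (backgrounds 0.524% and 0.186%). An unadjusted edgeR p below 0.05 was reached by 0 and 1 markers, against 12.9% and 12.6% of tested genes, and DESeq2 called none. The control value was -0.22 with 2 markers above 0 without control ZT18 replicate 1, and the sudachitin value was 0.09 with 7 above 0 without sudachitin ZT6 replicate 2, so in each treatment 1 library set the direction. Without overlap, Marco was higher and Timd4 lower at ZT18 in controls, where 21.3% of tested genes were higher and 21.1% lower, and Cd5l and Adgre1 were lower in sudachitin livers, where 22.3% were. Over both treatments the median was -0.07 with 5 above 0 (52.7%), or -0.25 with 1 above 0 without control ZT18 replicate 1, and none of the 10 passed in edgeR (background 3.68%) or DESeq2. In edgeR 1 marker, Marco, had an unadjusted p below 0.05, as 20.4% of tested genes did. Cd5l, at -0.41 (SE 0.28, edgeR adjusted p = 0.46), was at -0.79 (edgeR adjusted p = 0.021) without control ZT18 replicate 1. Marco, at 0.78 (SE 0.34, edgeR adjusted p = 0.24), was at 1.11 (edgeR adjusted p = 0.043) without sudachitin ZT18 replicate 2. Those fits called 1048 and 415 genes in all, against 534 with all 8 libraries. The Marco fit keeps replicate 1 as the only sudachitin ZT18 library, its highest, at 6.28 CPM. The interaction was above 0 for 1 of 10 markers, against 49.5% of tested genes, with a median of -0.61. None passed in edgeR (background 0.0%) or DESeq2, and 0 markers had an unadjusted edgeR p below 0.05, against 3.78% of tested genes. The median was -0.13 with 3 above 0 when control ZT18 replicate 1 was left out, and -0.23 with 3 above 0 when sudachitin ZT6 replicate 2 was.

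In 2 of the 4 groups 1 mouse stood above the other in nearly all markers. Relative to its own mean over the 8 libraries, each of the 10 was higher in sudachitin ZT6 replicate 2, by 0.38 to 0.97 log2 units, and 8 of 10 were in control ZT18 replicate 1. None of the 10 was above its mean in either control ZT6 library or in control ZT18 replicate 2. The latter was the lowest of the 8 libraries for 5 markers. Replicate 1 was the higher control ZT18 mouse in 9 of 10 markers (50.7% of tested genes), and the median log2 ratio of replicate 1 to 2 was 0.8, with 7 of 10 at 1.5-fold or more, against 8.68% of tested genes in that direction. Replicate 2 was the higher sudachitin ZT6 mouse in 10 of 10 (49.1% of tested genes), and the ratio was -0.67, with 8 of 10 at 1.5-fold or more, against 6.87%. In control ZT6 replicate 2 was higher in 8 of 10 (51.1% of tested genes) and no marker reached 1.5-fold (6.23% of tested genes did with replicate 1 higher and 5.63% with replicate 2 higher). In sudachitin ZT18 replicate 1 was higher in 7 of 10 (49.5%), and only Marco reached it, at 2.72-fold (5.17%).

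**Figure D3:**
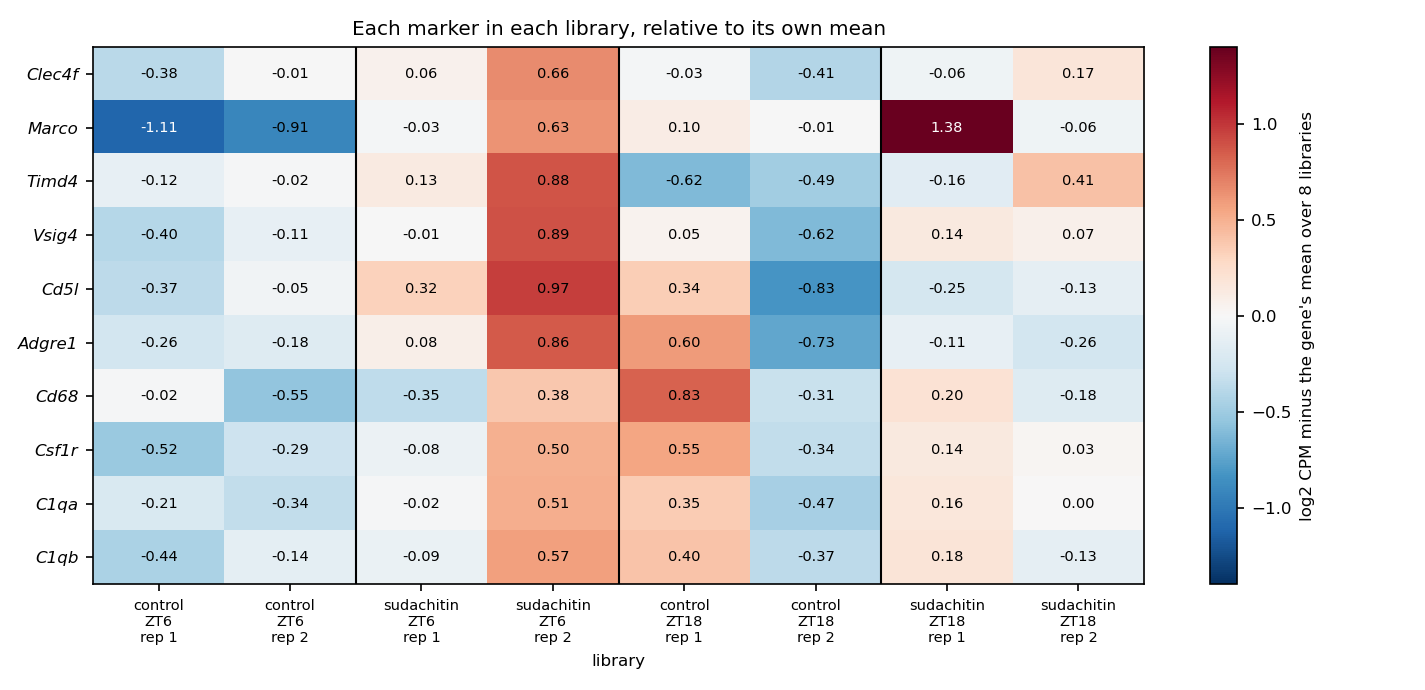
Log2 CPM of each marker (rows) in each library (columns) minus the marker's mean over the 8 libraries, with red above and blue below the mean and black lines between groups. The column of sudachitin ZT6 replicate 2 is red throughout, from 0.38 to 0.97, and that of control ZT18 replicate 1 runs from -0.62 for Timd4 to 0.83 for Cd68.

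Described across the 8 libraries, which share groups and depth, the 45 pairs of markers had a median Pearson r of 0.75, and 32 pairs were above 0.5. Csf1r and C1qb, and Clec4f and Vsig4, were closest at 0.96. Timd4 and Cd68 were farthest apart at -0.11. Each gene was also set against the mean standardized level of the 10, which for a marker includes the marker itself: Vsig4, C1qa and C1qb were at 0.96, and Cd68 (0.68), Marco (0.6) and Timd4 (0.55) were lowest. Outside the 10, the gene most like this mean was Cfp, which encodes the complement regulator properdin, at r = 0.977. C1qc, the third C1q chain, was at 0.963, and the rest of the 10 most alike were Prr16, Fam49a, Slc35a5, Sdc3, Ly86, Slfn2, Ear2 and Entpd1, at 0.932 to 0.965. Cfp was at 7.92 and 8.3 CPM in control ZT6, 9.71 and 15.1 in sudachitin ZT6, 11.2 and 8.15 in control ZT18 and 10.0 and 10.2 CPM in sudachitin ZT18 livers.

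CSF1R has 2 ligands, CSF1 and IL-34, which keep macrophages alive. Csf1 was at 6.55 and 6.34 CPM in control ZT6, 5.59 and 6.89 in sudachitin ZT6, 7.87 and 9.27 in control ZT18 and 7.23 and 8.63 CPM in sudachitin ZT18 livers, so that all 4 ZT18 livers were above all 4 ZT6 livers, as in 5.99% of tested genes. Its log2 difference of ZT18 against ZT6 over both treatments was 0.38 (SE 0.13, edgeR adjusted p = 0.14), and that of sudachitin against control was -0.08 (SE 0.13). Il34 was between 0.936 and 2.4 CPM and overlapped between treatments at both times.

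Other Kupffer cell and myeloid genes were mostly above 0 at ZT6 as well. Of 12 further Kupffer identity genes 10 were above 0 at ZT6 (48.8% of tested genes were), with a median log2 difference of 0.44. At ZT18 11 were (49.6%), with a median of 0.2, and none passed at either time. Without sudachitin ZT6 replicate 2 the ZT6 median was 0.15 with 9 above 0. Without control ZT18 replicate 1 the ZT18 median was 0.35 with 11 above 0. In this list C6, Slc40a1 and Nr1h3 averaged 217, 101 and 96.2 CPM over the 8 libraries. The highest of the 10 markers, Clec4f, averaged 45.8 CPM. Which cells these levels come from was not tested. Cd163, the haemoglobin scavenger receptor, was at 4.68 and 5.88 CPM in control ZT6, 5.47 and 11.3 in sudachitin ZT6, 5.08 and 4.92 in control ZT18 and 6.46 and 9.04 CPM in sudachitin ZT18 livers, and differed between treatments over both times by 0.64 (SE 0.23, edgeR adjusted p = 1.0). Fcna, which encodes ficolin A, a lectin that starts complement activation, differed by 0.41 (SE 0.17) and Il18bp, an IL-18 inhibitor, by 0.45 (SE 0.19), with an edgeR adjusted p = 1.0 for both. Of 19 further macrophage and myeloid genes 18 were above 0 at ZT6, with a median of 0.55, and 6 at ZT18, with a median of -0.06, and none passed. Both values rested on single libraries: at ZT6 10 of 19 were above 0, with a median of 0.02, without sudachitin ZT6 replicate 2, and at ZT18 16 of 19 were, with a median of 0.29, without control ZT18 replicate 1. Among them were Mpeg1, a pore-forming protein of phagocytes (0.33 over both times, SE 0.13), Aif1 (0.53, SE 0.24) and the fractalkine receptor Cx3cr1 (-0.75, SE 0.34). In sudachitin ZT6 replicate 2 all 19 were above replicate 1, and in control ZT18 replicate 1 all 19 were above replicate 2. Of the 12 Kupffer identity genes 10 were higher in sudachitin ZT6 replicate 2 than in replicate 1. In control ZT18 8 of the 12 were higher in replicate 1 and 4 in replicate 2, with a median log2 ratio of 0.12.

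Markers of other cells were read in the same libraries. Recruited monocyte genes summed to 3.44 to 6.42 CPM per library, against 121.0 to 276.0 CPM for the 10 markers, and 3 of 8 had enough counts to be tested, Plac8 with a log2 difference over both times of -0.28 (SE 0.17). Ccr2, the chemokine receptor by which monocytes are recruited, was picked after its values were seen. It was at 0.588 to 0.864 CPM in the 4 control and 0.0615 to 0.477 CPM in the 4 sudachitin livers. These did not overlap, as in 0.869% of tested genes downwards, and differed by -1.13 (SE 0.46, unadjusted p = 0.034, edgeR adjusted p = 1.0). The levels were low, as 3 counts in a library make 0.167 to 0.216 CPM. At ZT18 1 of the 3 tested monocyte genes was above 0. Ly6c2, a surface protein of classical monocytes, and Chil3, a chitinase-like protein of myeloid cells, averaged 0.316 and 0.111 CPM. Neutrophil genes summed to 2.42 to 3.93 CPM (2 of 11 tested), T and NK cell genes to 2.37 to 5.7 CPM (1 of 8 tested), with Ncr1 at 0 in all libraries, and dendritic cell genes to 4.07 to 7.52 CPM (2 of 5 tested). B and plasma cell genes summed to 15.6 to 96.1 CPM, and all 7 were higher in sudachitin ZT6 replicate 2 than in replicate 1, as the macrophage markers were, while 6 of 7 were lower in control ZT18 replicate 1 than in replicate 2. Red blood cell genes were higher in control ZT18 replicate 1 than in replicate 2 for 4 of 5, with a median log2 ratio of 0.86, close to the 0.8 of the macrophage markers. Hbb-bs, a beta globin, was at 214.0 CPM in that library and 90.4 to 147.0 CPM in the other 7. In sudachitin ZT6 the red blood cell genes went the other way from the macrophage markers. There 4 of 5 were higher in replicate 1, with a median log2 ratio of 0.3, against -0.67 for the markers. Their treatment difference had a median of 0.26 at ZT6 with 4 of 5 above 0, and of -0.6 at ZT18 with 1 of 5 above 0, or -0.11 without control ZT18 replicate 1. Sinusoidal endothelial genes, whose cells adjoin Kupffer cells, summed to 193.0 to 257.0 CPM and had a median log2 difference of -0.12 at ZT6 with 3 of 11 above 0. Stellate cell genes had -0.08 at ZT6 with 2 of 9 above 0, and hepatocyte genes -0.03 with 1 of 7 above 0. None of these passed in any treatment comparison, and the part of other cells in the marker levels was not tested. Of the macrophage cytokines and chemokines 4 of 11 were tested and none passed; Il18 was at 0.31 (SE 0.13, edgeR adjusted p = 1.0) over both times, and Il6 had 0 counts in all 8 libraries, which allows up to 0.167 to 0.216 CPM per library (3 counts).

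**Figure D4:**
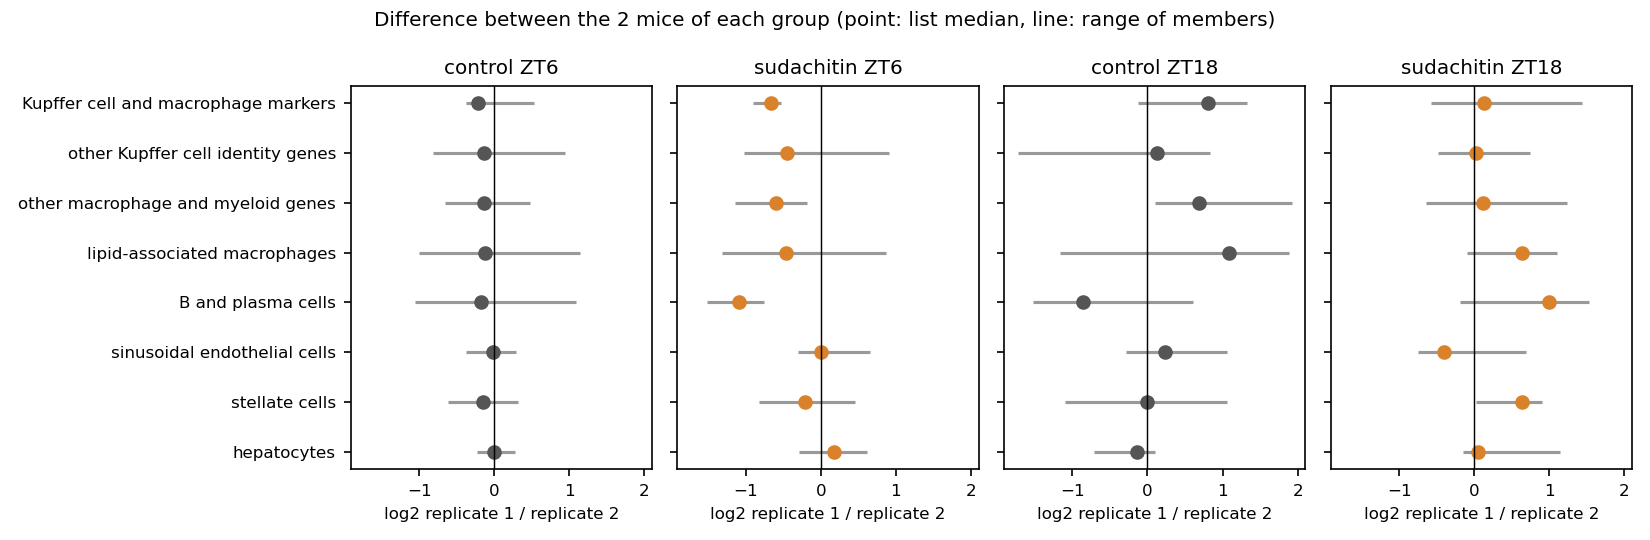
Log2 ratio of replicate 1 to replicate 2 (x axis) in each group for 8 gene lists, with the list median as a point and the range of its tested members as a line. In sudachitin ZT6 the macrophage lists have medians from -0.67 (the 10 markers) to -0.45 (other Kupffer cell identity genes). In control ZT18 the median is 0.8 for the 10 markers, 0.68 for other macrophage genes and 1.09 for lipid-associated ones. For the other Kupffer cell identity genes it is only 0.12 there. Sinusoidal endothelial genes have medians of 0.0 in sudachitin ZT6 and 0.23 in control ZT18.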

How the data were processed

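Bulk poly(A) RNA of 8 livers was sequenced without strand information as 150-base pairs, from RNA with an integrity number above 9.0, per the labels' protocols. Trimmomatic 0.39, STAR 2.7.2a and HOMER (version not given) are named in the submitters' processing notes, without their roles. The deposited tables hold 1 canonical transcript per gene on GRCm38 (mm10): estimated counts in exons, which move in steps of 0.5 (from the values, with exon counting per the file headers), and FPKM, the authors' counts relative to exon length and to the header total, which a recalculation matched within 4e-11. Strand use and multi-mapping were not given in the sources used here.

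Groups and replicate numbers came from the titles, 1 mouse each. Counts were rounded (0.5 up) and tested in R 4.3.3 with edgeR 4.0.16 (TMM, default filter by group, quasi-likelihood F test, all 8 libraries, 4 group means or treatment plus time), with Benjamini-Hochberg adjustment over 14506 genes and a threshold of 0.05. Each SE is the log2 difference over the square root of F. Log2 levels per library use a prior count of 2. The fit was tested on simulated data. All 10 markers are named, with up to 3 genes of at least 1 CPM and smallest treatment p from each of 15 other lists (some not described), both CSF1R ligands, and the 10 genes of highest r with the marker mean. Ccr2, Ly6c2, Chil3, Gpnmb, Clec7a, Lgals3, Trem2, Fabp5 and Cd9 were chosen after their values were seen. Members and lists were chosen with earlier results of these data known. Alternatives were DESeq2 1.42.0, other scalings and filters, only the groups compared, a replicate block, limma 3.58.1 on log2(FPKM + 0.1) or log2(FPKM + 1), and each library left out. Promoters are RefSeq's for GRCm38.p6.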

Additional observations from a re-analysis of the deposited data

How the results depend on the processing

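With 2 mice a group, each comparison is sensitive to single libraries. With no filter on low counts edgeR called 2 markers at ZT6 (Marco and Cd5l), 1 between times in control (Csf1r), 1 between times in sudachitin livers and 1 in the interaction (Cd5l in both), 3 for treatment over both times (Clec4f, Marco and Vsig4) and 2 for time over both treatments (Marco and Cd5l). The same fit called 67, 881, 861, 259, 309 and 1629 genes in all there, against 0, 76, 27, 0, 3 and 534. All other settings with the 8 libraries, DESeq2 and limma included, called no marker in any comparison. When single libraries were left out the count stayed at 0 except for time over both treatments (0 to 1). There Cd5l passed without control ZT18 replicate 1 and Marco without sudachitin ZT18 replicate 2. Those fits called 1048 and 415 genes in all, against 534 in the main fit. The median log2 difference of the 10 markers ranged from 0.26 to 0.95 for treatment at ZT6, from -0.32 to 0.56 at ZT18, from 0.16 to 0.61 over both times, from -0.22 to 0.66 for time in control, from -0.59 to 0.09 in sudachitin livers, from -0.25 to 0.13 over both treatments and from -0.92 to -0.13 for the interaction. The spread between mice of a group of the mean log2 level was 0.36.

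Replicate numbers did not pair the mice, with correlations between groups of the replicate 1 minus replicate 2 difference of -0.2 to 0.28. With the replicate number as a block no marker passed and the treatment median was 0.63 at ZT6 and 0.03 at ZT18, while all genes called were 1, 0, 43, 18 and 461 for treatment at ZT6 and ZT18 and time in control, sudachitin and both. With all 8 libraries, other counts of all genes that moved by over 1.5 times were, in DESeq2, 7 at ZT6, 43 at ZT18 (main count 2), 267 in control, 268 in sudachitin, 928 over both treatments, 14 for the interaction and 15 for treatment over both times; with no filter at ZT18, 488. Limma on log2(FPKM + 0.1) called 41 in control and 0 at ZT18 (the same with + 1), and without a filter 2 at ZT6, 18 at ZT18, 15 in control, 141 over both treatments and 1 for treatment over both times. With only the groups compared edgeR called 10, 0, 4 and 53 genes at ZT6, at ZT18, in control and in sudachitin. With single libraries left out the counts of all genes ran from 0 to 3 at ZT6, 0 to 194 at ZT18, 5 to 323 in control, 1 to 185 in sudachitin, 164 to 1048 over both treatments, 0 to 13 for the interaction and 2 to 6 for treatment over both times. Depth limits Marco and Timd4 most.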

Other observations

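Several genes of lipid-associated macrophages, a state described in fatty liver and adipose tissue, were highest in 1 control liver. This liver, control ZT18 replicate 1, was the highest or lowest library in 38.2% of all tested genes. Gpnmb, a lysosomal glycoprotein that too few libraries held for testing, was at 4.3 CPM in control ZT18 replicate 1 and at 0.117 to 0.474 CPM in the other 7 libraries. Clec7a, the beta-glucan receptor dectin-1, was at 6.86 CPM there against 1.76 to 4.57 CPM elsewhere. Lgals3, which encodes galectin-3, was at 6.03 CPM against 1.73 to 3.96 CPM. Cd63, a tetraspanin of lysosomes and exosomes, was at 10.3 CPM against 2.27 to 4.22 CPM. The lipid sensor Trem2 was at 1.95 CPM against 0.36 to 1.11 CPM. Fabp5 and Cd9 did not share this, with 14.9 CPM there and 9.48 to 33.7 CPM elsewhere for Fabp5, and 13.7 CPM there and 7.63 to 22.2 CPM elsewhere for Cd9. The genes named here were picked after their values were seen, apart from Cd63 and the collagen genes. This library was lowest for Timd4, at 1.34 CPM, but its group mate was close, at 1.48 CPM. It was high for Cd68, Csf1r, Adgre1, C1qa, C1qb and the resident marker Cd5l. Of 8 tested genes of this list 7 were higher in it than in its group mate, with a median log2 ratio of 1.09. None of the 8 passed edgeR in any comparison. Their treatment difference had a median of 0.18 at ZT6 with 5 of 8 above 0, and of -0.57 at ZT18 with 1 above 0. Without control ZT18 replicate 1 the ZT18 median was -0.22 with 3 above 0. Over both times the median was -0.16 with 2 above 0. The collagen genes Col1a1 and Col3a1 were also highest in control ZT18 replicate 1. Col1a1 was at 26.3 CPM against 4.3 to 12.6 CPM and Col3a1 at 65.5 CPM against 17.1 to 34.2 CPM in the other 7 libraries. Both belong to the list of 9 stellate cell genes, which did not share this. Of the 9, 4 were higher in this library than in its group mate and 5 lower, with a median log2 ratio of -0.01.

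Among the 11 sinusoidal endothelial genes, Oit3 and Lyve1 had the smallest treatment p and were lower with sudachitin. They were picked by that p, so the share of tested genes given beside them does not measure how rare their separation is. Oit3 was at 16.6 and 14.4 CPM in control ZT6, 11.7 and 12.3 in sudachitin ZT6, 17.7 and 14.8 in control ZT18 and 12.9 and 13.2 CPM in sudachitin ZT18 livers. All 4 sudachitin livers were below all 4 controls, as in 0.869% of tested genes, by -0.34 on the log2 scale (SE 0.1, edgeR adjusted p = 1.0). Lyve1, a hyaluronan receptor, was also without overlap, at 1.82 to 3.2 CPM with sudachitin and 3.45 to 8.2 CPM in controls, or -0.92 on the log2 scale (SE 0.31, edgeR adjusted p = 1.0). Its highest level was again in control ZT18 replicate 1, the other 3 controls were at 3.45 to 3.86 CPM, and the difference was -0.55 without that library. The median of the 11 sinusoidal endothelial genes over both times was -0.04. Jchain, the joining chain of secreted antibodies, was picked in the same way and differed by 1.13 (SE 0.42, edgeR adjusted p = 1.0). The 7 B and plasma cell genes had a median of 0.16 over both times, with 5 above 0. Jchain was highest in sudachitin ZT18 replicate 1, also the library highest for Marco, at 5.04 CPM against 0.648 to 2.18 CPM in the other 7.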
